A study of Homo sapiens with 9 samples.

Results

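The MYC and MAX network was read out here as 8 protein-coding genes, MYC, MYCN, MAX, MXD1, MXD3, MXD4, MXI1 and MNT, which were taken by symbol from the 32990 genes of the count table. All 8 were found and all 8 were among the 15479 genes tested. RNA sequencing of polyadenylated RNA covered 3 human liver cancer cell lines, Hep3B, Huh7 and SNU449, to describe how gene expression answers THZ531, a covalent inhibitor of the transcriptional kinases CDK12 and CDK13. Each line gave 1 library at 250 nM, 1 library at 500 nM and 1 control library whose label names no treatment, which leaves n = 3 at each dose, the lines, with nothing repeated inside one. The exposure time is uncertain, being 48 h in the characteristics of every treated library, while the protocol text has SNU449 at 48 h and both other lines at 24 h. No label names a vehicle for the controls or separately grown cultures within a line. The p-values measure only the spread between these libraries, which may be technical and also holds differences of response between lines or doses.

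MYC and MYCN are transcription factors with a basic helix-loop-helix leucine zipper that bind DNA only as dimers with MAX. MYC-MAX dimers bind the E-box CACGTG and activate genes for ribosome production, metabolism and growth. MXD1, MXD3, MXD4, MXI1 and MNT also dimerise with MAX, occupy the same E-boxes and bring the SIN3-HDAC corepressor, so they act as antagonists of MYC. MYC mRNA is short-lived, and the gene is a frequent driver in liver cancer, whereas MXD1 is known from cells that leave the cell cycle or differentiate.

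The start regions of the members were searched for the E-box and 3 other motifs, since network genes are themselves read by such factors. Windows of 300 bases, 250 before to 50 after the RefSeq start (GRCh38.p14), were matched for 7 of the 8 members (10 windows, MYC not among them). The E-box CACGTG was in 2 of these 10 windows, those of MXD4 and MNT, against 7.26% of all 35116 windows in the RefSeq table. The letters TTTNGCGC, an E2F-type motif, were found on both strands as an overlapping pair in the MYCN window and in none of the other members' windows, against 1.79% of all windows. The MXD1 window held neither motif and had 2 GC boxes (GGGCGG, in 45% of all windows). The AP-1 letters TGANTCA were in the MXD3 window, against 7.71% of all windows. All motifs were searched on both strands. The windows printed are those of MXD1, the member called in both Hep3B and Huh7, of MXD4 and MNT with the E-box in capitals, and of MYCN with the E2F-type letters in capitals. A match is a run of letters and no measurement of binding.
MXD1, chr2:69914859-69915158, plus strand: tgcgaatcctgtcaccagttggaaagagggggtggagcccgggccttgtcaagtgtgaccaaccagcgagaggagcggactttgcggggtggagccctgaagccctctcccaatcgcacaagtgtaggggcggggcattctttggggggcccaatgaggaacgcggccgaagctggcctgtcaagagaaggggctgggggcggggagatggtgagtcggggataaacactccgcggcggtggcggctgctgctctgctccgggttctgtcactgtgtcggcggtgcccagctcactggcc
MXD4, chr4:2262060-2262359, minus strand: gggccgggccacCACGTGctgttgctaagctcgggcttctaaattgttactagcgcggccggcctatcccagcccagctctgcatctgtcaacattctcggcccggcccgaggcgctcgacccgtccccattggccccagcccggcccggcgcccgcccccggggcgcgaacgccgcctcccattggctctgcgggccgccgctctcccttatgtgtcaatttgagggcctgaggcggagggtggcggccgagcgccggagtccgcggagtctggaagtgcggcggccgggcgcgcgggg
MNT, chr17:2401011-2401310, minus strand: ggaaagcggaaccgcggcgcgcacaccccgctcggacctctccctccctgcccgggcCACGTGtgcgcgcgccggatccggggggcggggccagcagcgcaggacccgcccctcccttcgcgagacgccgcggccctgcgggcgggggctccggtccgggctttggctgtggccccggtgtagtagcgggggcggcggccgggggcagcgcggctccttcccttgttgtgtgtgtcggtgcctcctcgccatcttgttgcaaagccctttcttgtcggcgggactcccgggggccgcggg
MYCN, chr2:15940300-15940599, plus strand: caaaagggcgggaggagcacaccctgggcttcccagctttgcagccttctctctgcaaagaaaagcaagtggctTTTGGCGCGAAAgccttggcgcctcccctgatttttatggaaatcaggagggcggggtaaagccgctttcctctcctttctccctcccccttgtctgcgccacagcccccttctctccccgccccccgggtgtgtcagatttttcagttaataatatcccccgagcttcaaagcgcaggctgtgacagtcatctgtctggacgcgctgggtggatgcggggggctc

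Depth and composition differed between the libraries. Total counts ran from 5701981 in Huh7 at 500 nM to 20657610 in the Hep3B control. Mitochondrial genes took 8.14 to 13.1% of the counts in the 4 treated Hep3B and Huh7 libraries and 3.85 to 4.28% in their controls, while the 3 SNU449 libraries lay between 4.32 and 4.47%. Summed over 10 hepatocyte markers, the level was 23892, 33233 and 50525 CPM (the count of a gene relative to the scaled total of its library) in Hep3B at 0, 250 and 500 nM, and 18771, 41308 and 88858 CPM in Huh7, with no marker at 0. Single markers did not all follow the sum. Within Hep3B 0 of the 10 were called higher and 1 lower (all genes: 9.82% and 6.72%). Within Huh7 6 were called higher and 1 lower (all genes: 13.3% and 6.04%). With scaling to the total count the calls were 0 higher and 1 lower within Hep3B, and 6 higher and 2 lower within Huh7. In each of the 4 treated libraries 2 or 3 of the 10 lay below their control. In SNU449 the same sum was 9.61, 7.94 and 7.53 CPM, so the hepatocyte markers of the labelled tissue were nearly absent from that line, and its 6 mesenchymal markers summed to 6533 to 7376 CPM. Those markers summed to 2535, 4610 and 5681 CPM in Hep3B and to 7688, 10068 and 19817 CPM in Huh7. Of the 9 immune and fibroblast markers 1 to 3 were at 0 in each library, and their sum of 11.1 to 40.3 CPM in Hep3B, 302 to 1127 CPM in Huh7 and 987 to 1183 CPM in SNU449 came mainly from collagen genes and LUM. Libraries of bulk RNA give shares of RNA, in which fewer cells of a kind and less RNA per cell cannot be told apart.

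All levels given in CPM were scaled with TMM factors, which hold the bulk of genes at a constant level between libraries. Scaling to the total count instead shifted the median log2 fold change of all tested genes to -0.54 within Hep3B, -0.71 within Huh7 and 0.00 within SNU449. It also turned the split of calls at an adjusted p of 0.05, except for 250 nM against control, where higher calls led under both scalings. Within Hep3B 1520 genes were called higher and 1040 lower with TMM, against 1082 higher and 2405 lower with total counts. Within Huh7 the same counts were 2059 and 935 with TMM, against 1212 and 3562 with total counts. For 500 nM against control over the 3 lines they were 534 and 112, against 709 and 1997, for 250 nM 164 and 24, against 268 and 99, and for both doses 535 and 266, against 784 and 2511. Ratios between members of the same library do not depend on the scaling.

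MXD1 mRNA rose in Hep3B and in Huh7 at both doses and was low in SNU449, where no rise was seen. In Hep3B MXD1 had 37.9, 244 and 162 CPM at 0, 250 and 500 nM (929, 2892 and 1479 counts). In Huh7 it had 40.9, 244 and 365 CPM (739, 1870 and 1354 counts). In SNU449 it had 5.92, 4.88 and 5.26 CPM (98, 75 and 95 counts). The 4 treated libraries of Hep3B and Huh7 lay above both of their controls, with no overlap, and every SNU449 library lay below all libraries of the other lines. Against the control of the line, the 250 nM level was 6.44-fold in Hep3B (95% interval of the counts 5.98 to 6.95) and 5.98-fold in Huh7 (5.49 to 6.52). At 500 nM it was 4.28-fold in Hep3B (3.94 to 4.65) and 8.94-fold in Huh7 (8.17 to 9.79). The SNU449 ratios were 0.825 (0.602 to 1.13) at 250 nM and 0.888 (0.662 to 1.19) at 500 nM, with intervals that hold 1. These intervals cover counting error only. Scaled to the total count, Hep3B had ratios of 4.83 and 2.84, and Huh7 of 4.26 and 4.63, so MXD1 was also a larger part of the counts in all 4 libraries. The same 4 libraries had the higher mitochondrial shares and marker sums given above, and the part of these in the result was not tested.

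Within a line, the 250 and 500 nM libraries were taken as the 2 treated libraries and set against the 1 control (edgeR's quasi-likelihood test, 3 residual degrees of freedom, Benjamini-Hochberg adjustment over all tested genes). The spread came from treated libraries alone, without the deviation of the single control. It was shared by the 3 lines and includes any difference between the doses. An uncalled change in SNU449 therefore does not show that the gene stayed constant there. MXD1 rose by a log2 fold change of 2.42 ± 0.42 (SE) in Hep3B (adjusted p = 0.00505) and of 2.90 ± 0.43 in Huh7 (adjusted p = 0.00252). In SNU449 its change was -0.22 ± 0.41 (adjusted p = 1). The 3 responses of MXD1 differed (F = 18.2, adjusted p = 0.0388). By the protocol text SNU449 was exposed for 48 h and the other lines for 24 h, so line and exposure time cannot be told apart. MXD1 was 1 of 8 members for which the difference between lines passed, where 1.14% of all tested genes did. The SNU449 response minus the Huh7 response was -3.12 ± 0.56 (adjusted p = 0.0254, 1.58% of all genes called, 0.0452% higher and 1.54% lower). The SNU449 response minus the Hep3B response was -2.65 ± 0.56 and missed the threshold (adjusted p = 0.0667, 0 members and 0.342% of all genes called, 0.0258% higher and 0.317% lower, 1 member at an unadjusted p under 0.05 and 1 by DESeq2). The Huh7 response minus the Hep3B response was 0.47 ± 0.52 (adjusted p = 0.960, 0 members and 0.00646% of all genes called, 2 members at an unadjusted p under 0.05 and 0 by DESeq2). Without the Hep3B 250 nM library the rise in Hep3B was 2.09 and not called (adjusted p = 0.0707). The test of the difference between lines was lost without the Hep3B 250 nM library (adjusted p = 0.264), without the Hep3B 500 nM library (0.241), with RLE size factors (0.0661) and with total-count scaling (0.134). MXD1 lies on chromosome 2 at 69897688 to 69942945 (GRCh38) and shares 237 exonic bases with SNRNP27 on the same strand. SNRNP27 had 21.2, 26.5 and 25.2 CPM in Hep3B and 21.2, 30.6 and 21.6 CPM in Huh7 at 0, 250 and 500 nM, a narrower range than that of MXD1.

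**Figure D1:**
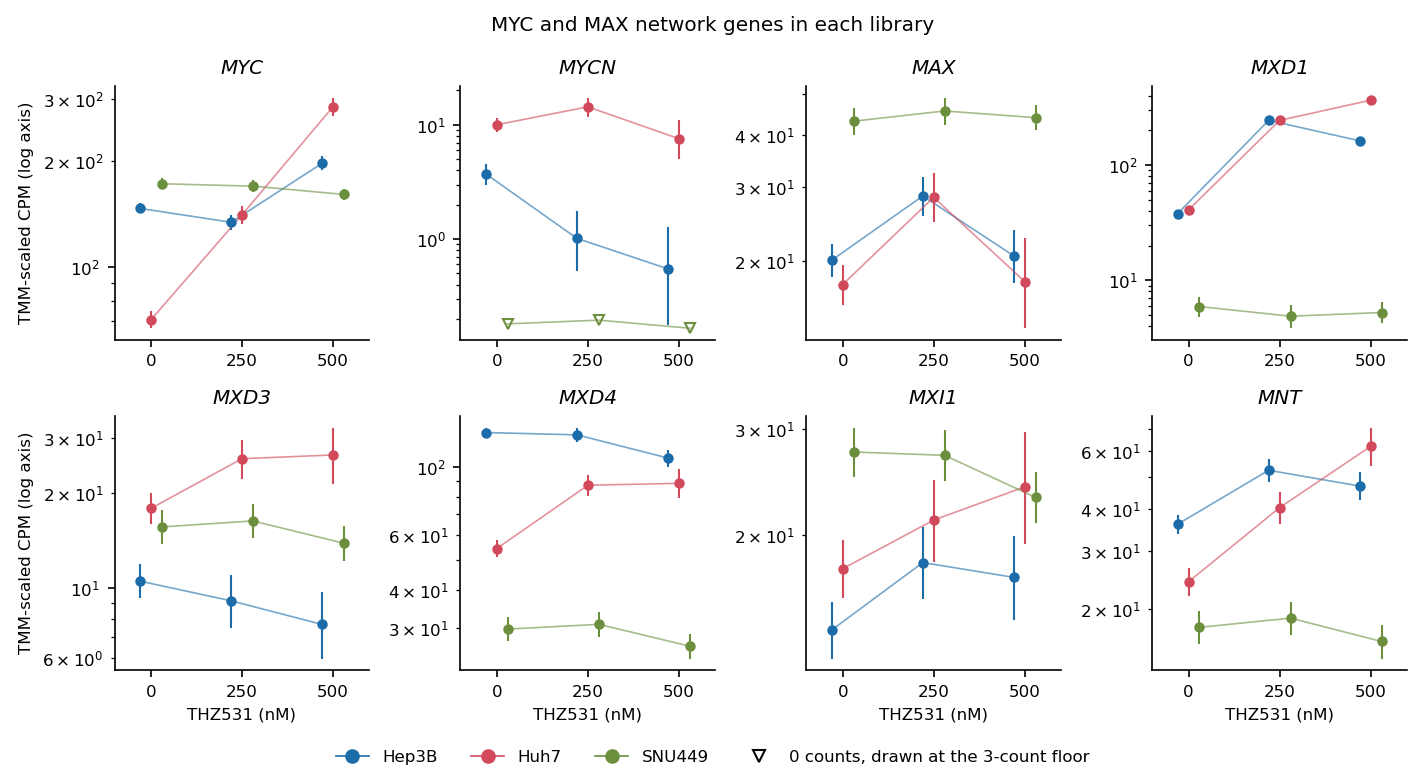
Level of each of the 8 genes (TMM-scaled CPM, log axis) against THZ531 dose in nM, with 1 point per library, coloured by line, and bars for the exact 95% Poisson interval of the count. Open triangles mark 0 counts, drawn at the floor of 3 counts. MXD1 of the treated Hep3B and Huh7 libraries sits at 162 to 365 CPM, above all other MXD1 values, and MYC of Huh7 reaches 286 CPM at 500 nM.

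MYC itself, the E-box activator for which the network is named (chromosome 8, 127735434 to 127741434), was higher at each dose in Huh7, and its changes in the other lines did not pass. In Huh7 MYC had 70.6, 140.5 and 286 CPM at 0, 250 and 500 nM (1276, 1075 and 1058 counts). In Hep3B it had 146, 134 and 197 CPM (3588, 1583 and 1794 counts). In SNU449 it had 172, 169.6 and 161 CPM (2850, 2604 and 2902 counts). The Huh7 control was the lowest of all 9 libraries and Huh7 at 500 nM the highest, while the Hep3B control lay between its treated libraries and the treated SNU449 libraries lay just below theirs, at 0.985 and 0.932 of it. MYC rose in Huh7 by 1.59 ± 0.46 on the log2 scale (adjusted p = 0.0320), against 0.17 ± 0.43 in Hep3B (adjusted p = 0.816) and -0.06 ± 0.42 in SNU449 (adjusted p = 1). A difference between the lines was not shown (adjusted p = 0.274, unadjusted p = 0.0418). The Huh7 call depended on the scaling. With total counts the levels were 88.5, 126 and 186 CPM in Huh7 and the change was 0.81 (adjusted p = 0.136), and in Hep3B the levels were 174, 119 and 155 CPM and the change turned to -0.34 (adjusted p = 0.527). Both values lie above the median of all genes under that scaling. Without Huh7 at 500 nM the Huh7 change was 0.87 (adjusted p = 0.0822), and without Hep3B at 250 or at 500 nM it was 1.48 and no longer passed (adjusted p = 0.0802 and 0.0782).

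MYCN, the paralogue best known from neuroblastoma (chromosome 2, 15940564 to 15947007), was the member that fell. In Hep3B it gave 91, 12 and 5 counts at 0, 250 and 500 nM, or 3.72, 1.01 and 0.549 CPM. In Huh7 it gave 181, 110 and 28 counts, or 10.0, 14.4 and 7.56 CPM. In the 3 SNU449 libraries it gave 0 counts, with upper 95% limits of 0.204 to 0.240 CPM. The treated Hep3B libraries lay below their control, whereas in Huh7 the 250 nM library lay above and the 500 nM library below it. The Hep3B ratios were 0.273 (95% interval 0.136 to 0.500) at 250 nM and 0.148 (0.0468 to 0.357) at 500 nM. MYCN fell in Hep3B by 2.20 ± 0.56 on the log2 scale (adjusted p = 0.0241), against a change of 0.17 ± 0.48 in Huh7 (adjusted p = 0.854). The Huh7 response minus the Hep3B response was 2.37 ± 0.75 and missed the threshold (adjusted p = 0.534). The Hep3B call was lost without its 250 nM library (-2.75, adjusted p = 0.101) and without its 500 nM library (-1.84, adjusted p = 0.173). In Huh7 the direction depended on the scaling, since total counts gave -0.47 (adjusted p = 0.483), and it turned to -0.50 without the 250 nM library. MYCNOS, antisense to MYCN over 98 exonic bases, had at most 1 count in any library. The E2F-type letters shown in capitals above lie in the MYCN window, and the binding of a factor there was not measured.

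MAX, the obligate partner of all the others, showed no change that passed a test. It had 20.0, 28.6 and 20.5 CPM in Hep3B at 0, 250 and 500 nM. In Huh7 it had 17.5, 28.4 and 17.8 CPM, and in SNU449 43.1, 45.6 and 44.0 CPM. In Hep3B and Huh7 the 250 nM library was the highest of its line and the 500 nM library close to the control, and all SNU449 libraries lay above those of the other lines. The log2 fold change was 0.29 ± 0.35 in Hep3B (adjusted p = 0.592), 0.42 ± 0.36 in Huh7 (adjusted p = 0.447) and 0.05 ± 0.35 in SNU449 (adjusted p = 1).

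MNT, a broadly expressed antagonist that represses through SIN3, had 24.2, 40.5 and 62.1 CPM in Huh7 at 0, 250 and 500 nM, 36.1, 52.6 and 47.1 CPM in Hep3B, and 17.6, 18.8 and 15.9 CPM in SNU449. Its treated libraries lay above the control in Huh7 and in Hep3B and on both sides of it in SNU449. The Huh7 change of 1.08 ± 0.35 just missed the threshold (adjusted p = 0.0522), passed it in DESeq2 (1.08, adjusted p = 0.0435) and was 0.34 with total-count scaling (adjusted p = 0.541). In Hep3B the change was 0.47 ± 0.34 (adjusted p = 0.360) and -0.03 with total counts. MNT shares 1065 exonic bases with the antisense gene AC006435.1, and without a stated strand setting the reads of such a pair cannot be told apart.

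MXD4, an antagonist known from resting and differentiating cells, was the most abundant antagonist in the Hep3B control. It had 129, 127 and 107 CPM in Hep3B at 0, 250 and 500 nM, 54.3, 87.0 and 88.2 CPM in Huh7, and 29.8, 30.9 and 26.2 CPM in SNU449. The lines did not overlap, with Hep3B above Huh7 and Huh7 above SNU449 in every library. Both treated Huh7 libraries lay above their control with TMM scaling, the 500 nM library lay below it with total counts, and the change of 0.69 ± 0.32 did not pass (adjusted p = 0.149). In Hep3B the change was -0.14 ± 0.31 (adjusted p = 0.786).

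MXD3, an antagonist expressed in proliferating cells in S phase, had 10.5, 9.13 and 7.68 CPM in Hep3B, 17.9, 25.7 and 26.4 CPM in Huh7, and 15.7, 16.3 and 13.9 CPM in SNU449. MXI1, an antagonist that hypoxia induces, had 13.9, 18.0 and 17.0 CPM in Hep3B, 17.6, 21.2 and 24.0 CPM in Huh7, and 27.4, 27.1 and 23.1 CPM in SNU449. For both genes the treated libraries of Huh7 lay above their control with TMM scaling, no change passed in any line, and with total-count scaling both MXI1 libraries and the MXD3 library at 500 nM lay below it. The largest of these changes was 0.54 ± 0.32 for MXD3 in Huh7 (adjusted p = 0.255). MXD3 shares 926 exonic bases with RAB24 on its own strand and 1158 with PRELID1 on the other, and PRELID1 had 105 to 189.7 CPM, so the MXD3 level is uncertain.

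Counted over the network, 2 of 8 members were called within Hep3B, MXD1 higher and MYCN lower. In that line 16.5% of all tested genes were called, 9.82% higher and 6.72% lower. Within Huh7 2 of 8 members were called, MXD1 and MYC, both higher, where 19.3% of all genes were called, 13.3% higher and 6.04% lower. Within SNU449 edgeR called 0 of 8 members and 0% of all genes, with 0 members at an unadjusted p under 0.05 and 0 by DESeq2. Over all genes 68 had an unadjusted p under 0.05 in SNU449. With 8 members, 2 calls are close to the share called among all genes in Hep3B and in Huh7.

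Over the 3 lines, with the line as a term in the fit, 0 of 8 members were called at any dose. For 500 nM against control edgeR called 0 members, where 4.17% of all genes were called (3.45% higher and 0.724% lower), with 3 members at an unadjusted p under 0.05 and 1 by DESeq2. For 250 nM it called 0, where 1.21% of all genes were called (1.06% higher and 0.155% lower), with 1 member at an unadjusted p under 0.05 and 0 by DESeq2. For 500 nM against 250 nM it called 0, where 0% of all genes were called, with 0 at an unadjusted p under 0.05 and 0 by DESeq2. For both doses together it called 0, where 5.17% of all genes were called (3.46% higher and 1.72% lower), with 1 at an unadjusted p under 0.05 and 1 by DESeq2. MXD1 had the smallest p in each comparison with control. Its log2 fold change was 1.65 ± 0.55 at 500 nM (adjusted p = 0.0867), 1.63 ± 0.55 at 250 nM (adjusted p = 0.180) and 1.64 ± 0.51 for both doses (adjusted p = 0.0705), and 4 of 6 treated libraries were higher than their control. MYC had 0.76 ± 0.35 at 500 nM (adjusted p = 0.171) and MYCN -1.52 ± 0.67 (adjusted p = 0.161). The count changed with the libraries used. Without the 3 SNU449 libraries 4 members were called at 500 nM, MXD1 at 2.66 (adjusted p = 8.01e-06), MYC at 1.18 (adjusted p = 0.00945), MNT at 0.86 (adjusted p = 0.0204) and MYCN at -1.45 (adjusted p = 0.0399). Without the SNU449 control alone 4 members were called as well, without SNU449 at 500 nM 2 were, without Hep3B at 250 nM 1 was, and without SNU449 at 250 nM 0 were. The share of all genes called was not recorded for these refits, so their counts of members cannot be set against it. With all 9 libraries, leaving out the filter gave 2 calls, and DESeq2 and total-count scaling gave 1 each.

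**Figure D2:**
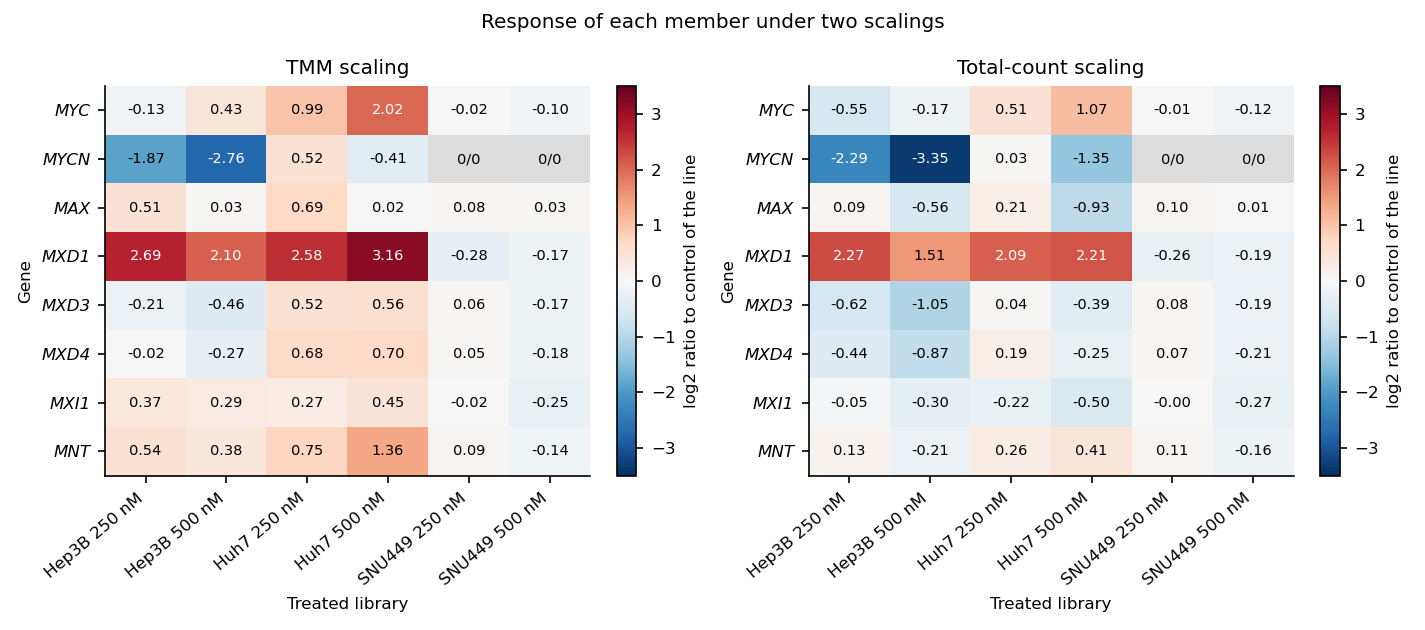
Log2 ratio of each treated library (columns) to the control of its line for each gene (rows), with TMM scaling on the left and total-count scaling on the right; red is higher and blue lower than control, and grey cells hold 0 counts in both libraries. MXD1 stays red in the 4 Hep3B and Huh7 columns under both scalings (1.51 to 3.16), whereas MYC and MNT in Hep3B at 500 nM and MXD4 in Huh7 at 500 nM are among the cells that change sign between them.

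The make-up of the network shifted with MXD1. Counts per kb of exonic length were summed over the 8 genes in each library, and each gene was given as a share of that sum. MXD1 made up 6.77, 32.2 and 21.0% of the network in Hep3B at 0, 250 and 500 nM and 11.6, 31.1 and 30.4% in Huh7. In SNU449 its share was 1.12, 0.925 and 1.07%. All 5 antagonists summed to 37.9, 57.0 and 42.1% in Hep3B and to 43.6, 52.5 and 46.2% in Huh7, against 19.4, 19.7 and 18.2% in SNU449. MYC made up 55.3, 37.3 and 53.9% in Hep3B and 42.4, 37.8 and 50.2% in Huh7, with 68.0 to 69.0% in SNU449. In both Hep3B and Huh7 the antagonists' share was thus highest at 250 nM, where MYC's was lowest, and no test was made of these shares.

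Within the antagonists MXD1 replaced MXD4 as the leading transcript per kb. MXD4 held 54.6% of antagonist counts per kb in the Hep3B control and 31.8% in the Huh7 control, where MXD1 held 17.9 and 26.6%. At 250 nM MXD1 held 56.5% in Hep3B and 59.2% in Huh7, and at 500 nM 49.9 and 65.8%. In SNU449 MXI1 led in every library with 35.6 to 36.9%, and MXD1 held 4.71 to 5.88%. The ratio of MXD1 to MYC, per kb, was 0.122, 0.863 and 0.390 in Hep3B at 0, 250 and 500 nM, 0.274, 0.822 and 0.605 in Huh7, with 0.0136 to 0.0162 across SNU449. The ratio of MYC to MAX was 10.8, 6.91 and 14.2 in Hep3B, 5.94, 7.31 and 23.7 in Huh7, with 5.39 to 5.89 across SNU449. MYC mRNA exceeded MAX mRNA per kb in all 9 libraries, by most in Huh7 at 500 nM. These are ratios of mRNA, and protein was not measured.

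**Figure D3:**
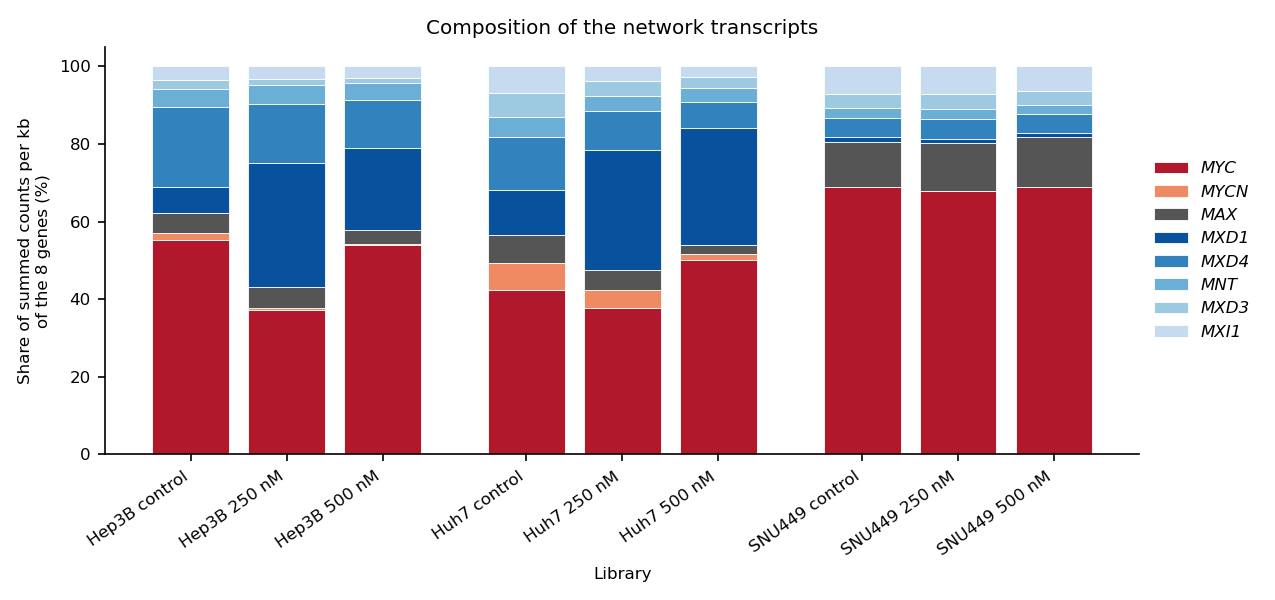
Share of each gene (percent) in the summed counts per kb of the 8 genes, 1 bar per library, ordered by line and dose, with MYC and MYCN in warm colours, MAX in grey and the antagonists in blue. The dark blue MXD1 segment grows to between 21.0 and 32.2% in the treated Hep3B and Huh7 bars and stays near 1% in SNU449.

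In the untreated lines the order of members differed. Per kb, the Hep3B control ranked MYC (48.8 CPM per kb) above MXD4 (18.3), MXD1 (5.97), MAX (4.53), MNT (4.14), MXI1 (3.02), MXD3 (2.04) and MYCN (1.43). The Huh7 control ranked MYC (23.5 CPM per kb) above MXD4 (7.69) and MXD1 (6.43), then MAX (3.96), MYCN (3.85), MXI1 (3.82), MXD3 (3.48) and MNT (2.77), of which MAX, MYCN and MXI1 lay close together. The SNU449 control ranked MYC (57.4 CPM per kb) above MAX (9.74), MXI1 (5.95), MXD4 (4.22), MXD3 (3.04), MNT (2.01) and MXD1 (0.932), with MYCN at 0 counts. Each control is 1 library, so these ranks have no replicate error.

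Around the 8 genes, 10 lists of partners, regulators and textbook targets were followed, with calls from TMM scaling and, in separate sentences, from total-count scaling. Over all 15479 tested genes TMM called 16.5% within Hep3B (9.82% higher and 6.72% lower) and 19.3% within Huh7 (13.3% higher and 6.04% lower). Total counts called 1082 genes higher and 2405 lower within Hep3B, and 1212 higher and 3562 lower within Huh7. Within Hep3B 5217 of all genes had an unadjusted p under 0.05, and DESeq2 called 2343. No list was tested against these shares. Among 5 other members of the extended network, MLX, the MAX-like partner of the glucose sensors MondoA and ChREBP, fell in both lines. MLX had 80.3, 40.3 and 40.6 CPM in Hep3B at 0, 250 and 500 nM and 43.1, 18.3 and 16.7 CPM in Huh7, against 56.9, 59.0 and 60.9 CPM in SNU449. The treated libraries of Hep3B and Huh7 lay below their controls, and the SNU449 libraries did not. Its log2 fold change was -0.99 ± 0.28 (adjusted p = 0.0348) in Hep3B and -1.29 ± 0.29 (adjusted p = 0.0126) in Huh7. MLX shares 770 exonic bases with PSMC3IP on the other strand. With TMM MYCL, MGA, MLXIP and MLXIPL were not called in any line. With total counts 2 of the 5 were called lower within Hep3B, so not MLX alone, and 1 within Huh7. Among 6 tested of 7 targets of the MLX branch, 0 were called within Hep3B (3 at an unadjusted p under 0.05 and 1 by DESeq2), and within Huh7 TXNIP was called higher and ACACA lower. With total counts 0 were called higher and 2 lower within Hep3B, and 1 higher and 1 lower within Huh7. TXNIP, which blocks glucose uptake, had 2.88, 51.3 and 134 CPM in Huh7 and 126, 267 and 439 CPM in Hep3B (5.00 ± 0.67, adjusted p = 0.00191 in Huh7 and 1.48 ± 0.52, adjusted p = 0.0711 in Hep3B).

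Among 12 genes of the SIN3-HDAC corepressor, through which the antagonists act, 1 was called in each of Hep3B and Huh7, SAP18 in both cases. Over all genes 16.5% were called within Hep3B and 19.3% within Huh7. With total counts this list had 0 genes called higher in either line and 1 lower within Hep3B, so the SAP18 calls rest on TMM scaling. SAP18 had 64.3, 142 and 120.3 CPM in Hep3B and 73.1, 167 and 173 CPM in Huh7 at 0, 250 and 500 nM (1.03 ± 0.32, adjusted p = 0.0483 and 1.22 ± 0.33, adjusted p = 0.0241). Among 12 coactivators and partners of MYC, 1 was called within Hep3B and 3 within Huh7, all higher with TMM. With total counts 0 were called within Hep3B, and 1 higher and 1 lower within Huh7. KAT2A, the GCN5 histone acetyltransferase, had 103, 244 and 221 CPM in Hep3B and 59.4, 256 and 331 CPM in Huh7, and rose in both lines (1.17 ± 0.34, adjusted p = 0.0370 and 2.30 ± 0.36, adjusted p = 0.00278). KAT5, the TIP60 acetyltransferase, and ZBTB17, the factor MIZ-1 through which MYC represses, rose in Huh7 (1.53 ± 0.34, adjusted p = 0.0117 and 0.99 ± 0.32, adjusted p = 0.0492). Of 13 genes acting on the stability of MYC protein, 0 were called within Hep3B (3 at an unadjusted p under 0.05 and 0 by DESeq2) and 1 within Huh7, the mitotic kinase PLK1 (1.72 ± 0.39, adjusted p = 0.0127). With total counts the PLK1 call was lost, and 2 of the 13 were called lower within Hep3B and 1 within Huh7.

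Proteins that bind MYC mRNA moved in both directions. Of 10 such genes, 3 were called higher and 1 lower within Hep3B (all genes: 9.82% and 6.72%). Within Huh7 4 were called higher and 1 lower (all genes: 13.3% and 6.04%). With total counts 2 were called higher and 1 lower within Hep3B, and 3 higher and 3 lower within Huh7. ZFP36L1, which destabilises mRNAs with AU-rich elements, had 75.9, 479.5 and 451 CPM in Hep3B and 122, 485 and 1064 CPM in Huh7 at 0, 250 and 500 nM, and 374 to 407 CPM in SNU449. Its log2 fold change was 2.62 ± 0.49 (adjusted p = 0.00684) in Hep3B and 2.66 ± 0.49 (adjusted p = 0.00547) in Huh7. ZFP36, a relative of the same function, rose in both lines as well (1.69 ± 0.49, adjusted p = 0.0372 in Hep3B and 2.66 ± 0.52, adjusted p = 0.00705 in Huh7). YBX1 rose in both lines (1.53 ± 0.39 and 1.27 ± 0.38), and KHSRP, another decay factor, rose in Huh7 (2.06 ± 0.39, adjusted p = 0.00599). IGF2BP2, which stabilises its target mRNAs, fell in both (-1.09 ± 0.29, adjusted p = 0.0278 in Hep3B and -0.95 ± 0.30, adjusted p = 0.0437 in Huh7).

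Textbook targets that MYC activates did not move as one. Of 25 genes of the nucleolus and ribosome production, 1 was called higher and 0 lower within Hep3B (all genes: 9.82% and 6.72%). Within Huh7 5 were called higher and 1 lower (all genes: 13.3% and 6.04%). With total counts 1 was called higher and 2 lower within Hep3B, and the balance in Huh7 turned to 2 higher and 4 lower. NOP56, a core protein of box C/D snoRNPs, had 310.5, 1684 and 1429 CPM in Hep3B and 410.0, 2757 and 5721 CPM in Huh7, against 183 to 200.3 CPM in SNU449 (2.33 ± 0.49, adjusted p = 0.0106 and 3.37 ± 0.52, adjusted p = 0.00265). NOP56 hosts several snoRNA genes, and the annotation places part of its exonic bases over them. FBL, NOLC1, PES1 and PPAN were called higher within Huh7 by 1.17 to 2.31, where POLR1A, the largest subunit of RNA polymerase I, fell (-1.37 ± 0.36, adjusted p = 0.0230). PPAN shares 56.0% of its exonic bases with the readthrough gene PPAN-P2RY11. The median over the 25 genes was 0.00 within Hep3B and -0.01 within Huh7, against -0.03 in each line over all genes.

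Of 22 metabolic targets, 1 was called higher and 3 lower within Hep3B (all genes: 9.82% and 6.72%). Within Huh7 2 were called higher and 2 lower (all genes: 13.3% and 6.04%). In each line 4 of 22 targets is close to the share of all genes called, 16.5% in Hep3B and 19.3% in Huh7. With total counts 1 was called higher and 8 lower within Hep3B, and 1 higher and 9 lower within Huh7. ODC1, the first enzyme of polyamine synthesis, rose in both lines (1.49 ± 0.34 and 1.44 ± 0.34, adjusted p = 0.0149 in each). It had 130.3, 363 and 371 CPM in Hep3B and 191, 494 and 541 CPM in Huh7. CAD, which starts pyrimidine synthesis, fell in both lines (-1.19 ± 0.31, adjusted p = 0.0229 and -1.15 ± 0.31, adjusted p = 0.0256), with 158, 62.3 and 75.8 CPM in Hep3B and 86.1, 35.4 and 42.4 CPM in Huh7. GART and PRPS2, of purine synthesis, fell in Hep3B, and MTHFD2, of mitochondrial folate metabolism, fell in Huh7, where IMPDH2, of guanine nucleotide synthesis, rose (2.06 ± 0.35, adjusted p = 0.00368). The median of the list was -0.24 within Hep3B and -0.30 within Huh7. Of 18 translation and cell cycle targets, 2 were called in each of Hep3B and Huh7, all higher with TMM. This is close to the 9.82% and 13.3% of all genes called higher. With total counts 0 were called higher and 1 lower within Hep3B, and 1 higher and 3 lower within Huh7. EIF4A1, the helicase of cap-dependent translation, was called in both, and EIF5A in Hep3B and EIF4G1 in Huh7. EIF4A1 was also the member of this list called over the 3 lines, at 500 nM (1.59 ± 0.38, adjusted p = 0.0361) and for both doses (1.54 ± 0.35, adjusted p = 0.0262). It shares 41.1% of its exonic bases with AC016876.2 and 29.8% with SENP3-EIF4A1, so its counts, at 3.08 to 56.4 CPM, are uncertain.

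Of 12 genes that MYC represses, 3 were called higher and 1 lower within Hep3B (all genes: 9.82% and 6.72%). Within Huh7 5 were called higher and 0 lower (all genes: 13.3% and 6.04%). With total counts 3 were called higher and 2 lower within Hep3B, and 3 higher and 1 lower within Huh7. CDKN1A, the CDK inhibitor p21, had 5.19, 19.1 and 20.0 CPM in Hep3B and 2.16, 11.9 and 20.8 CPM in Huh7, with 24.7 to 29.2 CPM in SNU449 (1.91 ± 0.40, adjusted p = 0.00988 and 2.88 ± 0.45, adjusted p = 0.00263). GADD45A, a stress gene, had 9.35, 149.8 and 362 CPM in Hep3B and 20.1, 118 and 419 CPM in Huh7. It was the member of the list called over the 3 lines at 500 nM (3.21 ± 0.78, adjusted p = 0.0361). NDRG1 rose in both lines (1.68 ± 0.35 and 1.07 ± 0.33). CDKN1B, which encodes p27, and CDKN2C rose in Huh7 (2.01 ± 0.38, adjusted p = 0.00613 and 1.17 ± 0.34, adjusted p = 0.0329). CEBPA, a hepatocyte transcription factor, fell in Hep3B (-1.78 ± 0.31, adjusted p = 0.00528). The list median was 0.29 within Hep3B and 1.12 within Huh7, against -0.03 over all genes in each line, and with total-count scaling it was -0.20 and 0.42 against medians of -0.54 and -0.71. Within SNU449 edgeR called 0 genes of all these lists, with 0 at an unadjusted p under 0.05 and 0 by DESeq2. Of the called genes named here outside the rule for named genes, KAT5, FBL, NOLC1, PES1, PRPS2, IMPDH2, MTHFD2, EIF4G1, YBX1, CDKN1B, CDKN2C and NDRG1 were chosen after their values were seen.

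Across the 9 libraries, the tested genes whose log2 CPM averaged 3 or more were ranked by the Pearson correlation of their log2 CPM with each member (9224 genes, a description of points that share lines and depth). The genes most like MYC were CCDC106 (r = 0.994), AKT2 (0.940), TIMM8A (0.936), C6orf1 (0.928) and SIX4 (0.927). CCDC106 had 12.4, 22.9 and 44.8 CPM in Huh7 at 0, 250 and 500 nM, and AKT2 had 114, 135 and 161 CPM. The genes most like MXD1 were CDK2AP2 (r = 0.997), MPV17L2 (0.997) and MIDN (0.993). MIDN had 217, 1783 and 728 CPM in Hep3B and 201, 877 and 1683 CPM in Huh7, against 21.0 to 27.7 CPM in SNU449, the same order of libraries within each of Hep3B and Huh7 as for MXD1. The closest to MYCN were GPR125 (r = 0.998), MRPS35 and ANKRD13D, to MAX METAP1 (0.989), BMS1 and PROSER2, and to MNT DUS3L (0.988), C19orf26 and TMUB1. The closest to MXD3 were FXR2 (0.988), PIGA and HSPA2, to MXD4 AP5Z1 (0.986), CXADR and ABCA7, and to MXI1 LRRC14 (0.969), SPP1 and GOLM1.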

How the data were processed

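The authors deposited raw counts per Ensembl gene for 9 libraries of polyadenylated RNA, with no normalization found in the values. The submitters' processing notes name HISAT2, HTSeq and the build GRCh38. The sources used here give no versions, annotation release or strand setting. Starting from these counts, TMM factors and the two-sided quasi-likelihood test of edgeR 4.0.16, run in R 4.3.3, were used on the 15479 genes that passed filterByExpr, with Benjamini-Hochberg adjustment at 0.05. The dose fit had terms for line and dose (4 residual degrees of freedom), and the line fit gave every line its own mean and its own treated term (3 residual degrees of freedom). The line pairs the samples, since the labels give the same cell line for each number and the deviations of its libraries from the dose means correlated at 0.797 to 0.961. Log2 ratios to the control of a line used a prior count of 2. Intervals are exact at 95% and cover counting error only. Exonic length and overlaps came from GENCODE v29, which places all 8 genes where the table does. The scripts were tested on simulated data.

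All 8 members were tested in every comparison, and for the comparisons over the 3 lines the text gives values for part of them. Of each of the 14 gene lists (169 entries, all in the table) up to 4 genes with the smallest p for both doses were to be named, and 5 genes most like MYC and 3 most like each other member. The text names part of these, and 1 gene is not reported here. The members and lists were chosen with earlier results of these data known. Alternatives were RLE and total-count scaling, DESeq2 1.42.0, no filter, no line term, the libraries of the comparison alone, and each line or library left out.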

Additional observations from a re-analysis of the deposited data

Results flagged for a closer look

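The response to THZ531 differed between the 3 lines in the F test of edgeR's line fit for 4 of the genes examined here. Over all 15479 tested genes 177 passed this test (1.14%). Examined were the network members and up to 4 genes of each of the 14 gene lists. The list genes were those with the smallest p for both doses in these same data. That choice may favour calls, so the 4 genes cannot be set against the share of all genes. For MXD1 the adjusted p was 0.0388, with responses of 2.42 in Hep3B, 2.90 in Huh7 and -0.22 in SNU449 on the log2 scale. This call was lost with RLE factors (0.0661), with total counts (0.134) and without either treated Hep3B library. For NOP56, TXNIP and COL1A1 singly, the alternative settings were not followed. For NOP56 the adjusted p was 0.0454, with 2.33 in Hep3B, 3.37 in Huh7 and -0.06 in SNU449. For TXNIP it was 0.0320, with 1.48 in Hep3B, 5.00 in Huh7 and -0.43 in SNU449. For COL1A1, a fibroblast marker, it was 0.0467, with 2.58 in Hep3B, 2.36 in Huh7 and -0.12 in SNU449. COL1A1 had 1.84, 12.6 and 9.33 CPM in Hep3B at 0, 250 and 500 nM and 195 to 236 CPM in SNU449.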

How the results depend on the processing

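Of 111 counts of members under alternative settings 83 kept within 1.5 times the main count, where 0 against 0 counted as kept. The 83 include every setting of 500 nM against 250 nM and of the response within SNU449. There the main fit called 0 of 15479 genes, so the 83 are a weak measure of stability. Of 302 values of single members 245 kept their direction and their side of the threshold. At 500 nM, with 0 members called, total-count scaling gave 1 (MYCN lower), DESeq2 1 (MXD1), no filter 2 (MYCN lower and MXD1 higher), and leaving out libraries 0 to 4. At 250 nM, with 0, no filter gave 1 (MXD1) and leaving out libraries 0 to 2. For both doses, with 0, total counts gave 2, DESeq2 1, no filter 1 and leaving out libraries 0 to 4. Where libraries were left out, the share of all genes called was not recorded. Within Hep3B, with 2, leaving out libraries gave 0 to 2, and within Huh7, with 2, total counts gave 1, and leaving out libraries 1 to 3. For the difference between lines, with 1, RLE factors gave 0 (MXD1 adjusted p = 0.0661), total counts 0 (0.134) and leaving out libraries 0 to 2 (0.00435 to 0.264 for MXD1). A fit with no replicate block, without the term for line, called 0 members in each of the 4 dose comparisons. The main fit had called 0 there as well, so this setting could not show a lost call. Its values did move, with MXD1 at 500 nM going from 1.65 (adjusted p = 0.0867) to 2.65 (adjusted p = 0.826).

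With total counts MYC turned to -0.046 at 250 nM and -0.34 in Hep3B, MNT to -0.031 in Hep3B and MYCN to -0.47 in Huh7. MYC at 250 nM turned to -0.050 without Huh7 and -0.20 without its control, and in Hep3B to -0.10 without the 500 nM library. MYCN at 250 nM turned to 0.39 without Hep3B, to 0.49 without its control and to 0.16 with no replicate block. For both doses it turned to 0.036 without the Hep3B control, and in Huh7 to -0.50 without the 250 nM library. The causes were not tested. Depth limits MYCN most, at 5 counts in Hep3B at 500 nM.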
